A study of Mus musculus with 50 samples.

Results

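The regions described here are stretches of kidney chromatin in which an accessibility peak was called in every old library and in no young library. Peaks from 6 kidney ATAC-seq libraries, which read open chromatin by the insertion of the Tn5 transposase, were merged wherever they shared at least 1 bp. Of the 255698 merged regions, 826 (0.323%) held a peak in all 3 old libraries and in none of the 3 young ones, and these are called old-only regions. The opposite pattern was found in 3896 regions (young-only), and 45429 regions held a peak in all 6 libraries. The regions were thus chosen by the kidney peak calls themselves, so their presence in old and absence in young kidney is a description and was not tested. Absence means that no peak was called, and the weakest peaks kept in each kidney library lay at a fold enrichment of 1.38 to 1.48, so a weaker signal may have been present in young kidney.

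The mice were untreated females of the C57BL/6 strain, 2.5 months of age in the young groups and 23 to 25 months in the old groups, and whole frozen kidney and liver were used. Kidney and liver RNA-seq had 4 libraries per age, and liver ATAC-seq had 3 per age. A further RNA-seq set compared kidneys of mice aged 20 to 21 months given a treatment labelled 3C with kidneys of mice given the solvent DMSO (n = 4 each). Nothing in the labels says whether a library came from 1 animal, so p-values measure the spread between libraries.

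The kidney lists held 115836 to 128395 peaks in young and 93072 to 108970 in old libraries. The read depth of each library behind the peaks is not given in the sources used here. RNA libraries held 14.2 to 43.7 M (mega counts) of reads in genes, the most in old kidney replicate 4. Kidney identity was plain in all 8 age libraries, with Umod (uromodulin, of the thick ascending limb) at 6212 to 7788 CPM (counts scaled to the TMM-normalized library total) and Nphs1 (nephrin, of podocytes) at 38.5 to 57.4 CPM. One RNA library stood apart: the summed level of 10 genes of liver-secreted proteins was 4021 CPM in old kidney replicate 2, against at most 237 CPM in the other old kidneys and 131 to 196 CPM in the young. Counts of RNA calls at old-only regions and in the gene lists that changed without it are given beside the main ones. Those of other region classes, and of genes that passed in the young libraries too, are from the main fit only.

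Accessible regions away from gene starts are mostly enhancers, and the set that is open in a tissue reflects both the cell types present and the transcription factors active in them. AP-1 is a dimer of Fos and Jun proteins induced by stress and cytokines. PU.1, encoded by Spi1, and the RUNX proteins establish enhancers of blood cells, and the IRF family acts downstream of interferons. HNF1 and HNF4 maintain the programme of kidney tubule and liver cells. Aged kidneys of mice are known to gather macrophages, B cells and T cells around tubules and vessels.

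The following 8 windows of 201 bases around the peak summit (GRCm38, plus strand) are shown because they carry the letters that were more common in the old-only regions than in kidney regions at large, or lie at genes whose RNA rose. Capitals mark matches on either strand to AP-1 (TGANTCA), PU.1 (GAGGAAGT), RUNX (TGTGGTT), IRF (GAAA, any 2 bases, GAAA) or NF-kB (GGGA, any 1 base, TTTCC).
Adam17 intron region, chr12:21335916-21336116, PU.1 then NF-kB: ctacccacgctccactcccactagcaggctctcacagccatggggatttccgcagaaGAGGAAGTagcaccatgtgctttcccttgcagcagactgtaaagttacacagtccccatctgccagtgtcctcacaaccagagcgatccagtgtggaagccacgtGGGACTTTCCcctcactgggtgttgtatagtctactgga
Chromosome 13 region, chr13:89889198-89889398, RUNX then AP-1: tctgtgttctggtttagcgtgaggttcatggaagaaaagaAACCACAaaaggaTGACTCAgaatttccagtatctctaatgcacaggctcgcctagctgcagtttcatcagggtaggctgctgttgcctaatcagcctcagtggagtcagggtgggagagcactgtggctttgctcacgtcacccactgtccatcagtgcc
Chromosome 17 region, chr17:88123769-88123969, PU.1 and AP-1 in 1 run: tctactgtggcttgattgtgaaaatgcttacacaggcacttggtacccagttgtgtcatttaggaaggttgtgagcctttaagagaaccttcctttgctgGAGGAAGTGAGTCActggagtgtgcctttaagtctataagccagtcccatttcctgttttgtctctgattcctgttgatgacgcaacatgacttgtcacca
Itgb2 promoter region, chr10:77530260-77530460, PU.1 then RUNX: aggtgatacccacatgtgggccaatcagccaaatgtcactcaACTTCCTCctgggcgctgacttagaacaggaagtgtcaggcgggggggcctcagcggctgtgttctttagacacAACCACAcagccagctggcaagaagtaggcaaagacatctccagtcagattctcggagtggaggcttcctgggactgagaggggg
Cd84 promoter region, chr1:171840513-171840713, PU.1: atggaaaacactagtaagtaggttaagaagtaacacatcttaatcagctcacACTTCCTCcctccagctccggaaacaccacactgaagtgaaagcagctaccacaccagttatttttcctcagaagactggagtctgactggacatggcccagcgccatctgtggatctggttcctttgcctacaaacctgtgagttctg
Phf11b promoter region, chr14:59341284-59341484, IRF then PU.1: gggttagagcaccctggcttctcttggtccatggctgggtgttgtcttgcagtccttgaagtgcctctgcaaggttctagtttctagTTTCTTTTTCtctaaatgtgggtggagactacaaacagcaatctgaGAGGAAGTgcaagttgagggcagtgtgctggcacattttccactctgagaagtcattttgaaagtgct
Lat2 promoter region, chr5:134607246-134607446, AP-1: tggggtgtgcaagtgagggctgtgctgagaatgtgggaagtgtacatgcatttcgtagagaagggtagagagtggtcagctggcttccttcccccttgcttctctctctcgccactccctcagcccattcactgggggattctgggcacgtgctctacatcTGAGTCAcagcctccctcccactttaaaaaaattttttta
Ccl2 upstream region, chr11:82004905-82005105, PU.1: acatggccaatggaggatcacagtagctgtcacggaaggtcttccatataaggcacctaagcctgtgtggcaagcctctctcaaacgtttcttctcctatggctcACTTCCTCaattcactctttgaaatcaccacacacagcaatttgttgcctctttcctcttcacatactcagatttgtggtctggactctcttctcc
In the chromosome 17 window the last base of the PU.1 match is the first base of the AP-1 match, an arrangement (GAGGAAGT run on into GANTCA) that was found in 1 old-only region (0.121%) and in 46 of all kidney regions (0.018%).

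The old-only regions were near other kidney regions with an old peak in height, and somewhat longer than the typical kidney region. Their length ran from 237 to 1468 bp with a median of 436 bp, against 316 bp for all kidney regions, 405 bp for young-only regions and 816 bp for regions open in all 6 libraries. The mean fold enrichment over the 3 old libraries ranged from 1.81 to 5.78 with a median of 2.91, and the median by library was 2.80, 2.66 and 3.11 in old replicates 1, 2 and 3. Over kidney regions with a peak in at least 1 old library the median was 2.89, averaging only the old libraries that had a peak. It was 2.48 for regions with a peak in 1 old library alone and 4.63 for regions open in all 6 libraries. The weakest old-only region by mean fold lay 358 bp from a start of Erf, a repressor of the ETS family, with folds of 2.04, 1.67 and 1.73. All 3 old peaks reached a −log10 q of at least 2 in 378 regions (45.8%).

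The 10 regions of highest mean fold included only 1 promoter. The first lay in an intron, 3301 bp from the nearest counted start, that of Adam17, the protease that releases TNF from cell membranes, with folds of 5.65, 4.68 and 7.0 in old replicates 1, 2 and 3. The second, the chromosome 13 region printed above, had folds of 6.02, 4.63 and 6.70 and lay 146408 bp from Vcan, which encodes the matrix proteoglycan versican. A region 85082 bp from Vav3, a signalling protein of lymphocytes, had folds of 6.38, 5.05 and 3.80. Replicate 3 gave the highest value in 8 of these 10 regions, and the spread between the 3 libraries was wide for several of them. The highest single value, 7.59 in replicate 3, belonged to a region 74668 bp from Atp6v1g3 where replicate 1 stood at 3.10.

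**Figure D1:**
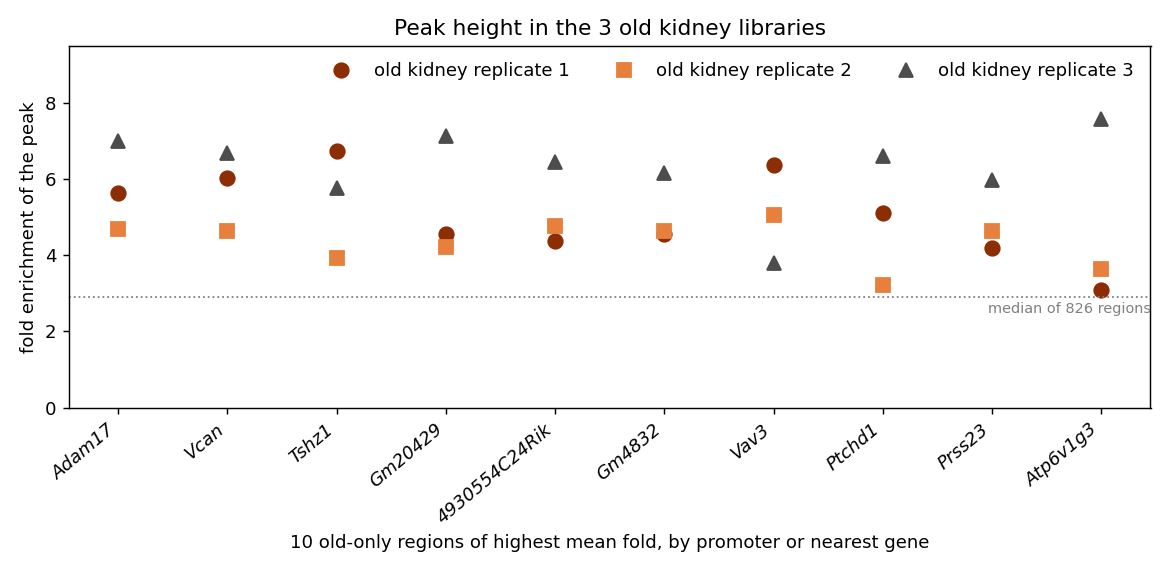
Fold enrichment of the peak (vertical axis) in each of the 3 old kidney libraries (symbols) for the 10 old-only regions of highest mean fold, named by the promoter gene or the nearest counted gene. Replicate 3 lies highest in 8 of 10, and every value sits above the dotted line, the median of 2.91 over all 826 regions.

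Most old-only regions lay away from gene starts. A transcription start site (TSS) was within 1 kb of 147 regions (17.8%, 95% Wilson interval 15.3 to 20.6%), 360 (43.6%) lay in introns, 278 (33.7%) between genes and 41 (4.96%) in exons. Of all kidney regions 15.5% lay within 1 kb of a TSS, so the placement was near the background, while the share was 12.4% for young-only regions and 37.2% for regions open in all 6 libraries. CpG-rich windows were few: 2.66% of the old-only windows held 10 or more CpG pairs, against 6.2% of all kidney windows, 3.47% of young-only windows and 25.8% of windows open in all 6 libraries. The regions were spread over the autosomes and X at 0.248 to 0.419% of the regions of each chromosome, the most on chromosome 7. Of the 628 windows of 1 Mb that held an old-only region, 468 held a single one. The densest, chr1:171000001-172000000, held 5, at Fcer1g, Arhgap30, Cd244a, Cd48 and Cd84, a cluster of Fc receptor and SLAM family genes of leukocytes.

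AP-1, PU.1, RUNX, IRF and NF-kB letters were more common at the summits of old-only regions than in the kidney's open chromatin at large. Of the other 9 motifs searched, none had an interval that lay above the share of all regions. Within 100 bp of the summit AP-1 letters were present in 155 regions (18.8%, Wilson interval 16.2 to 21.6%), against 7.86% of all kidney regions and 6.6% of young-only regions. PU.1 letters were present in 93 (11.3%, 9.28 to 13.6%), against 2.61% and 1.57%. RUNX letters were present in 91 (11%, 9.06 to 13.3%), against 4.94% and 4.26%. IRF letters were present in 52 (6.3%, 4.83 to 8.16%), against 2.11% and 1.51%. NF-kB letters were present in 10 (1.21%, 0.659 to 2.21%), against 0.322% and 0.231%. The intervals cover counting error only, and none of these 5 reached down to the share of all regions. In all, 338 old-only regions (40.9%) held at least 1 of the first 4, against 16.4% of all regions.

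Among the other motifs, letters of the tubule factors were rare. HNF4 letters (CAAAGTCCA) were found in 1 old-only region (0.121%, interval 0.0214 to 0.683%), against 0.838% of all regions and 1.54% of young-only regions. HNF1 letters (GTTAAT, any 1 base, ATT) were found in 2 (0.242%, 0.0664 to 0.879%), against 0.756% and 1.87%. For HNF1 the interval held the share of all regions and lay under that of young-only regions. CTCF letters (CCAC, any 1 base, AGGTGGC) were in 0 of 826, which allows a share of up to 0.363% by the limit of 3 counts and 0.463% by the Wilson bound, against 0.476% of all regions, and PPAR-RXR letters (AGGTCA, any 1 base, AGGTCA) were in 0 of 826 and in 0.0383% of all regions. Regions just outside the rule were also low. With 2 old and 0 young libraries HNF1, HNF4 and CTCF were at 0.161, 0.39 and 0.115%, and with 3 old and 1 young at 0.177, 0.649 and 0.177%. Low HNF1 and CTCF shares were thus not particular to old-only regions. ETS (ACCGGAAGT) letters had an interval that held the share in all regions. So did those of CEBP (TTGCGCAA), POU2F (ATGCAAAT, 0.605% against 1.06%) and NFAT (TGGAAAA, 3.63% against 4.55%), factors that also act in leukocytes, and for TEAD (ACATTCC) the upper bound of 4.0% equalled that share. A match says that letters are present, not that a protein was bound. No window can hold an AP-1 match inside a PU.1 match or the reverse, and any overlap as in the chromosome 17 window counts for both.

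**Figure D2:**
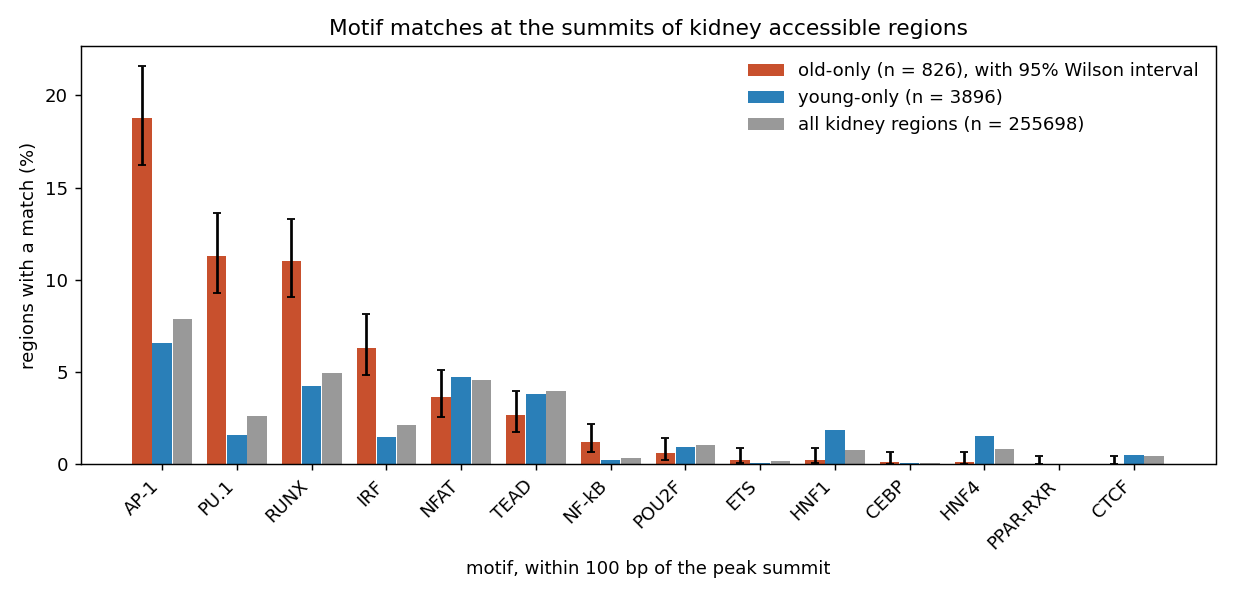
Share of regions (vertical axis, percent) with each motif within 100 bp of the summit, in old-only regions (with 95% Wilson intervals), young-only regions and all kidney regions. AP-1, PU.1, RUNX and IRF stand at 18.8, 11.3, 11 and 6.3% of old-only regions, each above both other bars.

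Pairs of motifs were counted next. PU.1 and AP-1 were both present in 10 old-only regions, which is 6.45% of those with AP-1 and 10.8% of those with PU.1, against 2.85% and 8.58% over all kidney regions. AP-1 and RUNX shared 16 regions (10.3% and 17.6% of each, against 5.12% and 8.15%). PU.1 and RUNX shared 11 (11.8% and 12.1%, against 6.15% and 3.24%), as in the Itgb2 promoter window. Most matches of 4 of the 5 motifs lay close to the summit: 67 of the 93 regions with PU.1 (72.0%) had it within 50 bp, against 57.9% of all kidney regions with PU.1, and the shares were 65.8% and 55.2% for AP-1, 61.5% and 50.9% for RUNX and 55.8% and 45.9% for IRF. For NF-kB the order was the other way, with 4 of 10 (40%) against 52.9%. In promoter regions PU.1 and AP-1 were equally common at 13.6%, against 2.58 and 5.67% of all kidney promoter regions. In distal regions AP-1 was in 19.9% and PU.1 in 10.8%, against 8.26 and 2.61% of all distal regions. RUNX was in 12.2% of distal and 5.44% of promoter regions, against 5.15 and 3.83%.

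The pattern faded as the rule was loosened. PU.1 was in 6.84% of the 4357 regions with a peak in 2 old and no young libraries and in 2.55% of the 57969 regions with a peak in 1 old library alone. It was in 9.68% of the 1694 regions with 3 old and 1 young, in 5.89% of the 3871 with 3 old and 2 young, and in 2.58% of those open in all 6. AP-1 ran 18.8, 14.0 and 8.3% for 3, 2 and 1 old libraries with no young, then 16.2, 13.2 and 7.53% for 3 old with 1, 2 and 3 young. Median fold in the old libraries was 2.65 just outside the rule with 2 old and 0 young, and 3.03 with 3 old and 1 young.

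RNA was measured in other libraries and played no part in the choice of regions. Of the 159 genes with an old-only region within 1 kb of a TSS, 112 were protein-coding, 125 were in the count table and 110 had enough counts to be tested. Of these 110, 35 (31.8%) rose and 0 fell in old kidney (edgeR quasi-likelihood test, adjusted p under 0.05 and a change of over 2-fold), against 5.68% of all 14495 tested genes higher and 0.407% lower. When old kidney replicate 2 was left out, 33 rose and 1 fell, while 857 of all 14519 tested genes (5.9%) rose and 337 fell. The median log2 fold change of the 110 was 0.41, against 0.02 for all tested genes. A gene that passes the count filter through its old libraries alone had to differ. Among the 100 promoter genes that passed in the young libraries too, 30 rose, against 3.99% of all genes that did so. Genes at the promoters of young-only regions were higher in 7 of 279 cases (2.51%) and lower in 4, and those at regions open in all 6 libraries were higher in 370 of 12605 (2.94%).

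**Figure D3:**
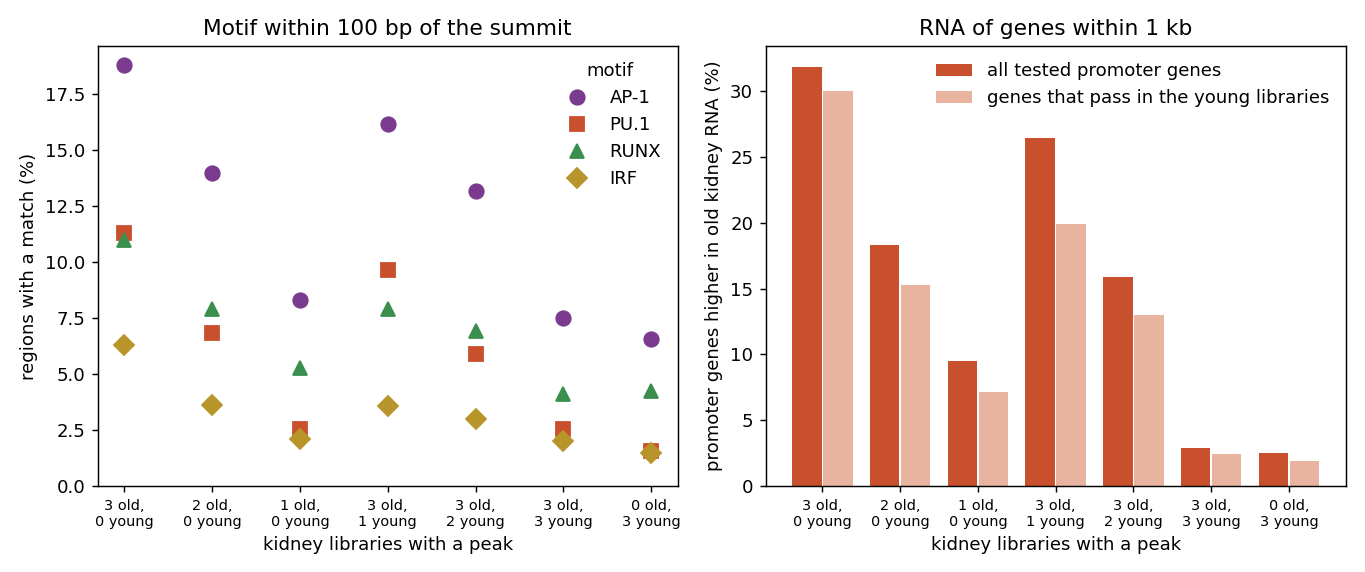
Left, share of regions (percent) with AP-1, PU.1, RUNX or IRF letters at the summit, and right, share of promoter genes (percent) higher in old kidney RNA, by the number of old and young kidney libraries with a peak. Both are highest at 3 old and 0 young (31.8% of promoter genes) and low at 3 old and 3 young (2.94%).

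The promoter genes of smallest p whose groups did not overlap are described first. Tyrobp and Fcer1g encode the signalling adaptors of activating receptors on macrophages, NK cells and mast cells. Tyrobp stood at 6.44, 6.16, 7.86 and 9.02 CPM in the 4 young kidneys and at 24.5, 33.7, 28.6 and 56.5 CPM in the 4 old ones (log2 fold change 2.29 ± 0.27 SE, adjusted p = 0.00114 by edgeR). Fcer1g stood at 4.79, 5.75, 6.65 and 6.44 CPM in young and 20.1, 28.4, 27.9 and 54.7 CPM in old kidneys (2.48 ± 0.30, adjusted p = 0.00122 by edgeR). The groups did not overlap for either gene, and old replicate 4 was the highest. The region at Tyrobp ended 683 bp from a start, with folds of 3.02, 3.55 and 4.86, and the one at Fcer1g covered a start, with folds of 2.32, 2.87 and 3.13.

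Adgre1, which encodes the macrophage surface marker F4/80, was at 6.60, 5.84, 4.64 and 6.38 CPM in young and 20.0, 37.7, 16.6 and 43.1 CPM in old kidneys (2.33 ± 0.31, adjusted p = 0.00188 by edgeR). It had an old-only region over its start and another 16723 bp away. Itgb2, the beta chain of the leukocyte integrins, was at 5.59, 5.66, 5.43 and 4.09 CPM in young and 19.6, 30.6, 15.9 and 44.9 CPM in old kidneys (2.42 ± 0.32, adjusted p = 0.00176 by edgeR). The region covered a start of the gene, with folds of 3.23, 3.28 and 4.58, and its printed window holds PU.1 and RUNX letters. For both genes old replicates 2 and 4 were above replicates 1 and 3, and all 4 were above every young library.

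Cd84, a SLAM receptor of leukocytes whose promoter window holds PU.1 letters, was at 0.479, 0.899, 0.929 and 1.14 CPM in young and 2.95, 6.10, 3.69 and 10.3 CPM in old kidneys (2.76 ± 0.45, adjusted p = 0.00454 by edgeR), with folds of 4.56, 3.51 and 5.45. Lat2, an adaptor of B cells and mast cells, was at 0.904, 0.944, 0.715 and 1.5 CPM in young and 4.47, 7.91, 5.11 and 8.41 CPM in old (2.67 ± 0.32, adjusted p = 0.00126 by edgeR). Its region, with AP-1 letters, lay within the gene, 671 bp from an annotated start. H2-Ob, a subunit of the class II modulator H2-O, was at 1.17 to 2.16 CPM in young and 4.4 to 6.71 CPM in old kidneys (1.95 ± 0.27).

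Ccl12, a chemokine that attracts monocytes, went from 17 counts over the 4 young libraries to 729 over the 4 old ones. It stood at 0.0601 to 0.532 CPM in young and at 3.71, 4.88, 3.88 and 9.62 CPM in old kidneys (4.55 ± 0.59, adjusted p = 0.00168 by edgeR), and was among the genes that did not pass the count filter in the young libraries alone. Kcnn4, a calcium-activated potassium channel of T cells and macrophages, had the smallest adjusted p of the promoter genes (0.000979, edgeR) and went from 0.643 to 1.12 CPM up to 3.55 to 6.02 CPM. Psd4, an exchange factor for ARF6, was at 0.786 to 1.62 and 4.88 to 10.8 CPM, and Cd300c2, a receptor of the CD300 family, at 0.643 to 2.05 and 5.64 to 14.1 CPM. Cd300c2 has close relatives, so reads may be shared among them and its level is less certain.

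**Figure D4:**
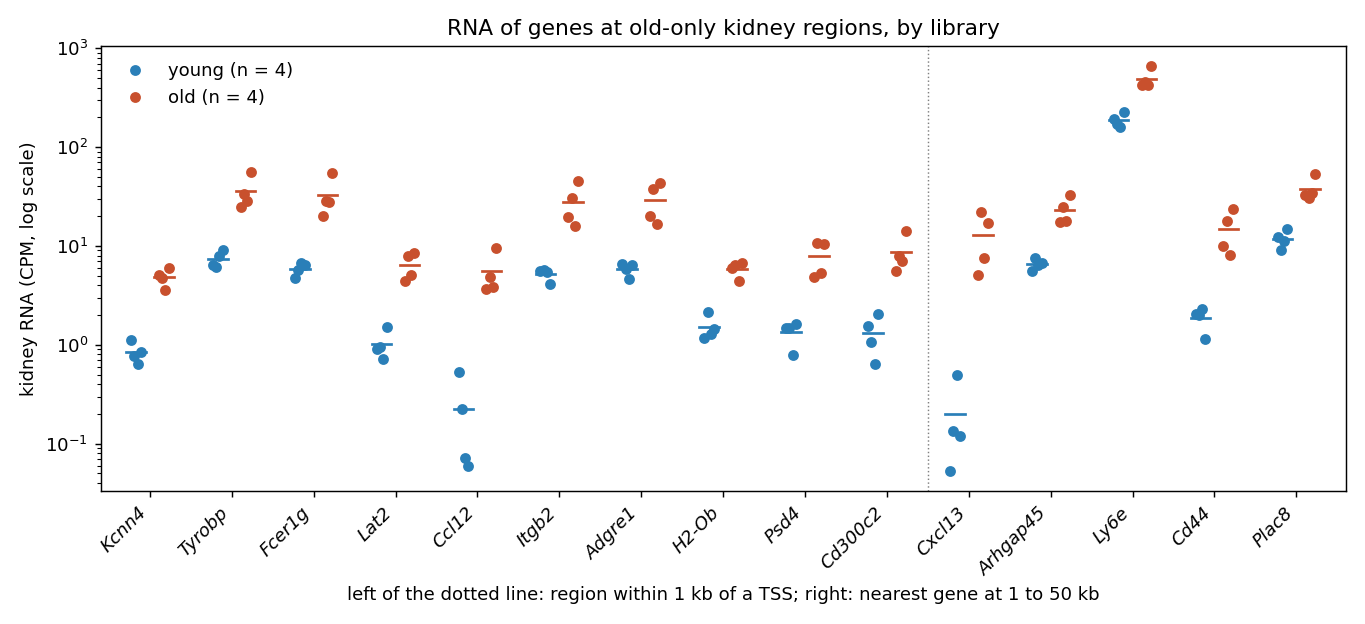
Kidney RNA (CPM, logarithmic axis) in the 4 young and 4 old libraries for 10 genes with an old-only region within 1 kb of a TSS (left of the dotted line) and 5 nearest genes of distal regions (right). Points are libraries, bars are means, and old libraries lie above the young ones for each of the 15 genes, as the choice of genes required.

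Other promoter genes that rose were Ptprc (CD45, the common leukocyte phosphatase, 1.61 ± 0.41), Plek (pleckstrin, 2.65 ± 0.46), Slc11a1 (a metal transporter of phagosomes, 2.50 ± 0.38), Fcrls (an Fc receptor-like protein, 3.58 ± 0.54), Clec10a (a macrophage lectin, 2.22 ± 0.32), Runx3 (a RUNX factor of T cells, 2.18 ± 0.42) and Tigit (an inhibitory receptor of T cells, 4.35 ± 0.78). These 7 were chosen after their values were seen, and Tigit passed the count filter through its old libraries alone. Not all of the 35 promoter genes that rose are named here, and the 35 were not sorted by cell type. Plek and Tigit each had 3 old-only regions within 1 kb of a start or as nearest gene. Among promoter genes of other cell types, Acta2, the actin of smooth muscle and myofibroblasts, was at 61.4 to 81.0 CPM in young and 76.5 to 125 CPM in old kidneys, with overlap (0.40 ± 0.16, adjusted p = 0.126 by edgeR). Ptpro, a phosphatase of podocytes, was at 18.2 to 33.0 and 20.6 to 39.0 CPM (0.07 ± 0.24).

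For distal regions the nearest counted gene was taken. Of 679 distal regions, 534 had a counted gene at 1 to 50 kb, and they named 507 genes, of which 410 were tested. Of these 410, 50 (12.2%) rose and 0 fell, against 5.68% and 0.407% of all tested genes, and the median log2 fold change was −0.01. Without the 2-fold limit, by adjusted p alone, 60 were higher and 17 lower, against 8.15% and 3.36% of all tested genes. Among the 383 that passed in the young libraries too, 38 (9.92%) rose, against 3.99% of all genes that did so. By distance, 12.8% rose at 1 to 5 kb, 13.8% at 5 to 10 kb, 12.7% at 10 to 20 kb and 10.8% at 20 to 50 kb, and 0 fell in each. Without old kidney replicate 2 the shares that rose were 12.8, 16.1, 12.8 and 10.8%, and 1, 1, 2 and 4 genes fell. Young-only regions gave 56 higher (3.37%) and 10 lower of 1664 nearest genes. Without old kidney replicate 2, the library with liver transcripts, 8 nearest genes fell and 52 rose, while 337 of all 14519 genes tested fell and 857 rose.

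Among nearest genes, Cxcl13, a chemokine that draws B cells into follicles, had the smallest p, but it passed the count filter through its old libraries alone and so had to differ. It was at 0.0532, 0.135, 0.5 and 0.12 CPM in young (13 counts) and 5.13, 22.3, 7.62 and 17.1 CPM in old kidneys (6.10 ± 0.68, adjusted p = 0.000979 by edgeR). Its region, 11396 bp away, had folds of 3.83, 3.23 and 4.49. Arhgap45, a GTPase-activating protein of blood cells with a region in an intron that holds AP-1 letters, was at 5.53 to 7.60 and 17.6 to 32.9 CPM (1.83 ± 0.22). Cd44, the hyaluronan receptor of leukocytes and injured tubule cells, was at 1.14 to 2.29 and 8.18 to 23.4 CPM (2.99 ± 0.37), with an AP-1 region at 46853 bp. Ly6e was at 161 to 224 and 427 to 658 CPM (1.40 ± 0.17), and Plac8 at 9.04 to 14.9 and 30.3 to 54.0 CPM (1.68 ± 0.22). These 5 genes were chosen among those whose groups did not overlap.

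The chemokine and cytokine genes nearest to old-only regions were low in young kidney. Ccl2, the main monocyte chemokine, was at 0.160 to 1.26 CPM in young and 3.74 to 12.3 CPM in old kidneys (3.53 ± 0.60, adjusted p = 0.00523 by edgeR), 30336 bp from the printed region with PU.1 letters. Ccl3 was at 0.00 to 0.241 and 0.559 to 1.61 CPM (3.15 ± 0.71, adjusted p = 0.0197 by edgeR). Ccl2 and Ccl3 did not pass the count filter in the young libraries alone. The call of Ccl3 was lost without old replicate 4 (adjusted p = 0.0727) and without young replicates 1, 2 or 3 (0.0632, 0.0719 and 0.0525). Cxcr4, the receptor of Cxcl12, was at 4.54 to 5.41 and 7.95 to 13.7 CPM (1.12 ± 0.20), and its fold change fell under the 2-fold limit without old replicate 4 (log2 fold change 0.96). Tnf had 2 counts in young and 202 in old libraries, Ctla4 2 and 73, Cxcl5 1 and 87, Ccr6 1 and 29, and Ccr9 16 and 38, all below the count filter and not tested.

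Further list genes near distal regions covered B cells, class II control and resident cells. Fcrla, a B cell protein, was at 0.315 to 1.32 and 4.11 to 8.41 CPM (3.01 ± 0.46, adjusted p = 0.00336 by edgeR), and it too passed the filter through its old libraries alone. Ciita, the master regulator of class II genes, was at 2.29 to 5.69 and 6.86 to 14.9 CPM (1.32 ± 0.34, adjusted p = 0.0323 by edgeR), lost without old replicate 4 (0.0952) or young replicates 2, 3 or 4 (0.0688, 0.0805 and 0.0554). Mrc1, the mannose receptor of macrophages, was at 4.51 to 8.25 and 7.97 to 35.6 CPM, with overlap (1.81 ± 0.49, adjusted p = 0.0406 by edgeR), and lost its call without old replicate 4 (0.118) and without young replicates 1, 2, 3 or 4 (0.0709, 0.119, 0.105 and 0.0696).

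Genes of resident kidney cells near distal regions did not pass both limits of the test. Acsm2, an acyl-CoA synthetase of proximal tubules, was at 1709 to 1883 CPM in young and 992 to 1571 CPM in old kidneys (−0.61 ± 0.15, adjusted p = 0.0309 by edgeR but under 2-fold), and Cubn, the cubilin receptor of the same cells, at 497 to 849 and 411 to 612 CPM (−0.50 ± 0.19). Erg, an ETS factor of endothelium, was at 14.6 to 16.3 and 9.98 to 15.5 CPM, Plvap of fenestrated endothelium at 143 to 235 and 181 to 246 CPM, Etv6 at 47.0 to 49.5 and 41.3 to 54.1 CPM, and Pparg at 4.93 to 7.93 and 4.95 to 10.7 CPM. Pvt1, a long noncoding RNA beside Myc, was the only gene that was nearest within 50 kb to 3 distal regions, and its RNA was at 1.20 to 1.49 and 2.34 to 2.95 CPM (0.95 ± 0.25), short of the 2-fold limit.

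The leukocyte markers of the whole kidney moved in the same direction. All 25 macrophage markers tested rose (median log2 fold change 2.52), and their summed level was 231 to 275 CPM in young and 964 to 2154 CPM in old kidneys. Of B and plasma cell markers 20 of 24 rose (median 3.72, sums of 31.9 to 41.4 and 475 to 669 CPM). Of T and NK cell markers 17 of 21 rose (median 2.61, sums of 11.7 to 15.3 and 64.8 to 104 CPM). Of class II genes 10 of 10 rose (median 2.0, sums of 445 to 593 and 1771 to 2460 CPM). Many of these genes passed the count filter through their old libraries alone. In the young libraries alone 23 of the 25 macrophage, 6 of the 24 B and plasma cell, 4 of the 21 T and NK cell and 9 of the 10 class II genes passed, and 23, 3, 3 and 9 of these rose. The part of these cells in the accessibility and RNA of the old-only regions was not tested, and in bulk tissue more cells of a type and more RNA or open chromatin per cell cannot be told apart. Of all 24984 counted genes, 618 (2.47%) had an old-only region at a start or as nearest gene. Among the macrophage markers these were Adgre1, Tyrobp, Cd84 and Mrc1, 4 of 25 (16.0%), and among class II genes H2-Ob and Ciita, 2 of 10. They were Fcrla alone of 26 B and plasma cell markers and Ctla4 alone of 26 T and NK cell markers (3.85% each). Among chemokines and their receptors 18 of 28 tested rose (11 of the 17 that passed in the young libraries alone), and 8 of the 37 listed (21.6%) were near old-only regions. Of 20 tested TNF and NF-kB response genes 12 rose (11 of the 17 that passed in young alone, and 10 without old kidney replicate 2), with Tnf and Ccl2 of the 24 listed (8.33%) near such regions. Without old kidney replicate 2, 19 of 23 tested B and plasma cell markers rose, and the macrophage, T and NK cell, class II and chemokine counts stayed as given.

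Each of the remaining lists had 0 to 2 members there, and with 2.47% of counted genes near an old-only region a list of this size would hold 0 or 1 at the background share. Of 11 tested AP-1 genes 4 rose (3 of the 8 that passed in young alone), and none of the 13 listed had an old-only region. None was found at the neutrophil markers (3 of 3 tested rose, and 4 of 4 without old kidney replicate 2, but none of the 3 passed the count filter in the young libraries alone), the senescence genes (6 of 12, and 4 of the 9 that passed in young alone), the distal nephron markers (0 of 18 rose and 1 fell) or the genes of liver-secreted proteins (0 of 7). Of 19 tested ETS genes 2 rose (1 of the 18 that passed in young alone) and 0 fell (1 fell without that library), with Erg and Etv6 near regions. Erf, named above for the weakest region, is not on the ETS list. Of 20 tubule injury genes 10 rose (9 of the 18 that passed in young alone, and 9 without old kidney replicate 2), with Cd44 near one. Of 18 proximal tubule markers 0 rose and 2 fell (median −0.48), or 3 fell without it, with Cubn and Acsm2 near regions. Podocyte (0 of 7, Ptpro), endothelial (0 of 11, Plvap), fibroblast and matrix (3 of 13, Acta2) and HNF, PPAR and RXR genes (1 of 12, Pparg) each had 1 member near an old-only region.

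The genes were also counted by the letters in their region. Of the tested promoter genes 7 of 17 rose at regions with PU.1 letters (41.2%), 2 of 13 with AP-1 (15.4%), 2 of 6 with RUNX and 1 of 5 with IRF, and 25 of 72 (34.7%) at regions with none of these or NF-kB. Of tested nearest genes 11 of 45 (24.4%) rose with PU.1, 8 of 78 (10.3%) with AP-1, 7 of 48 (14.6%) with RUNX, 3 of 33 (9.09%) with IRF and 26 of 242 (10.7%) with none. Of all 14495 tested genes 5.68% rose. Genes that passed the count filter through their old libraries alone were not left out of these counts. Without old kidney replicate 2 the promoter counts were 6 of 17 with PU.1 and 24 of 72 with none, where 1 also fell. The nearest gene counts were 12 of 45 with PU.1, 9 of 78 with AP-1, 4 of 33 with IRF and 26 of 241 with none. Among nearest genes 1 fell with RUNX, 1 with IRF and 7 with none. In that fit 5.9% of all 14519 tested genes rose and 337 fell. The counts are small and the difference between motifs was not tested.

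Liver gave a separate readout of the same genome positions. A liver peak overlapped 44.2, 35.4 and 41.5% of the old-only kidney regions in young liver replicates 1, 2 and 3 (mean 40.4 ± 4.53% SD, n = 3) and 65.1, 44.2 and 59.8% in old liver (mean 56.4 ± 10.9% SD, n = 3). Old replicate 2 equalled young replicate 1, the other 2 old livers lay above all young ones, and the difference of 16.0 percentage points gave p = 0.2 in an exact two-sided permutation test, where 3 against 3 cannot go below 0.1. Over all kidney regions the difference was −0.0416 points, and for young-only regions it was −5.48 points (27.7% in young and 22.2% in old liver). Regions just outside the rule leaned the same way as old-only regions. With 3 old and 1 young kidney libraries, shares were 43.6 to 44.6% in young and 58.9, 43.6 and 55.1% in old liver. With 2 old and 0 young they were 22.9 to 26% and 36.9, 24.1 and 34.4%. A higher share in old liver replicates 1 and 3 was thus not particular to old-only regions. A liver peak in more old than young livers was found for 343 regions (41.5%, against 14.8% of all kidney regions), and in fewer for 89 (10.8%, against 14.6%). No liver library had a peak at 175 (21.2%, against 53.0%), and 126 (15.3%, against 12.5%) were open in all 6 livers. The full pattern, 3 old and 0 young livers, held for 29 regions (3.51%, against 0.479%). These differences from all regions were not tested.

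The liver shares were also taken by motif. Old-only regions with PU.1 letters overlapped a liver peak in 58.1, 45.2 and 59.1% of cases in the young livers and in 90.3, 62.4 and 78.5% in old ones (n = 93 regions). Regions with AP-1 letters did so in 32.3, 29.7 and 36.8% and in 58.1, 40.6 and 52.3% (n = 155). The groups of livers did not overlap for either motif, and old liver replicate 2 was the lowest old library in both. Nor did they overlap with RUNX (36.3 to 37.4% in young and 38.5 to 74.7% in old, n = 91) or IRF (38.5 to 51.9% and 57.7 to 80.8%, n = 52). The 488 regions with none of AP-1, PU.1, RUNX and IRF did so in 46.3, 34.8 and 41.2% and in 60.9, 42 and 58.0%, with overlap. The difference between old and young means was 26.9 points with IRF, 22.9 with PU.1, 20.5 with RUNX, 17.4 with AP-1 and 12.8 with none. Whether these differ was not tested. In liver the summed macrophage markers stood at 690 to 1008 CPM in young and 1115 to 2242 CPM in old libraries. Other leukocyte lists were also higher in old liver without overlap, with sums of 14.7 to 15.5 and 37.7 to 148 CPM for B and plasma cells, 14.8 to 31.0 and 39.9 to 88.8 CPM for T and NK cells, and 2.72 to 5.76 and 13.8 to 154 CPM for neutrophils. Sums of class II genes overlapped, at 166 to 273 CPM in young and 198 to 476 CPM in old liver. The part of these lists in the liver peaks was not tested.

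**Figure D5:**
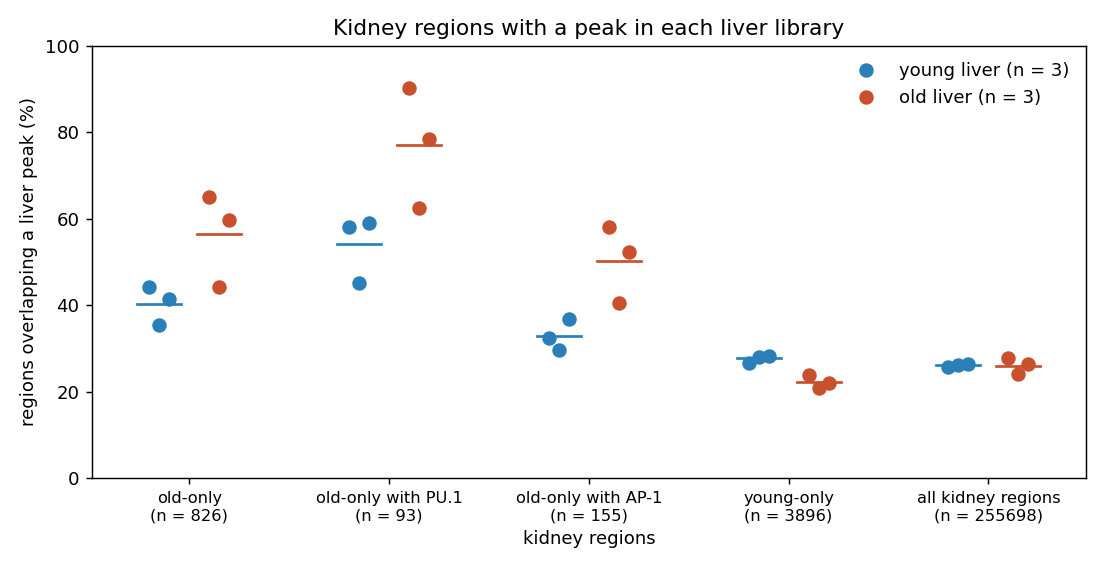
Share of kidney regions (vertical axis, percent) that overlap a peak in each young and old liver library (points, with the mean as a bar), for old-only regions, those with PU.1 or AP-1 letters, young-only regions and all kidney regions. Old-only regions average 40.4% in young and 56.4% in old liver, and all kidney regions about 26% in both.

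The RNA of the same genes was also measured in liver. Of the 459 genes at or near old-only regions that were tested in liver, 14 (3.05%) rose and 1 fell, against 1.69% higher and 0.439% lower of all 12537 genes, and the median log2 fold change was 0.17 against 0.00. Those that rose included Cxcl13, Fcer1g, Itgb2, Plek, Lgals3, Vav1, Myo1f, Ncf1, Apbb1ip, Cd36, Slamf9, Stat3 and Pla2g15, and Acsm2 fell (−4.04). Itgb2 changed by 1.99 in liver and 2.42 in kidney on the log2 scale, and Plek by 1.85 and 2.65. Of the 69 genes higher in old kidney that were tested in liver, 68 had a liver log2 fold change above 0, as had 90.5% of all genes higher in old kidney. The count of 14 depended on the test and on the libraries. DESeq2 gave 43 higher and 3 lower, where it called 511 of all genes higher (3.42%) and 116 lower (0.776%). A replicate block gave 5 higher and 1 lower, where it called 91 of all genes higher (0.726%) and 48 lower (0.383%). It was 37 without old liver replicate 1, 6 without old replicate 2, 5 without old replicate 3, and 4, 5, 5 and 8 without young replicates 1, 2, 3 and 4. The count over all genes moved too, from 212 to between 48 and 365 with 1 library left out.

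In kidneys of 3C-treated mice no gene passed the test against DMSO. Of 14974 genes tested by edgeR, 0.0% were higher and 0.0% lower, and DESeq2 called 8 in all, none of them at an old-only region. At an unadjusted p under 0.05, edgeR listed 104 of the 510 tested genes at or near old-only regions (20.4%), against 11.9% of all genes, and 21 of the 104 were above 0. All 79 of the genes near old-only regions that were higher in old kidney had a log2 fold change below 0 with 3C, from −1.55 (Cxcl13) to −0.02 (Lif) with a median of −0.50, and leaving out any 1 library kept 75 to 79 of them below 0. The same held for 706 of 803 (87.9%) of all genes higher in old kidney, with a median of −0.41. Adgre1 changed by −0.58, Tyrobp by −0.46, Fcer1g by −0.47 and Itgb2 by −0.50, each without an adjusted p past the threshold. Summed macrophage markers were at 571 to 872 CPM with 3C and 894 to 1036 CPM with DMSO. The sums of other lists were also lower with 3C without overlap, at 1143 to 1569 against 1647 to 2040 CPM for class II genes, 577 to 691 against 784 to 829 CPM for chemokines and their receptors, 460 to 542 against 570 to 634 CPM for TNF and NF-kB response genes, and 605 to 949 against 1115 to 1429 CPM for fibroblast and matrix genes. Those of B and plasma cells (175 to 288 against 175 to 570 CPM) and of T and NK cells (45.9 to 72.9 against 60.9 to 159 CPM) overlapped. The part of these lists in the values was not tested.

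The number of old-only regions is sensitive to single libraries and to the peak threshold. Without young replicate 1 or 2 the rule gave 1348 or 1620 regions, and without old replicate 1, 2 or 3 it gave 2319, 2901 or 1679, since fewer libraries set fewer conditions. With peaks of −log10 q of at least 5 alone it gave 339 regions. The share of tested promoter genes that rose moved little, at 16 of 55 (29.1%) against 31.8% over the 826 regions, and it was 30.5% of 164 when each library gave equally many top peaks.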

How the data were processed

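ATAC-seq peak lists of kidney and liver and RNA-seq counts were used as deposited. For RNA-seq the authors trimmed reads (Trimmomatic 0.39), aligned them to mm10 (HISAT2 2.2.1) and counted reads per gene without strand (HTSeq 0.12.4), so the deposited values are raw counts, and the reads of a gene and its antisense partner are not separable. The authors' ATAC-seq reads were mapped with Bowtie2 (2.3.5.1 in the submitters' processing notes), cleared of duplicates and passed library by library to the MACS2 peak caller. The deposited lists give the fold enrichment over local background as a ratio, and −log10 p and −log10 q. The submitters' processing notes name mm10 for the ATAC-seq libraries too, and no peak lay beyond the chromosome ends of GRCm38, its equivalent, which with GENCODE vM21 gave sequence, TSS and gene names (24534 of 24984 gene names in the count table matched).

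Peaks sharing 1 bp were merged. Promoter meant a TSS of any gene within 1 kb, and nearest gene the closest counted gene at 1 to 50 kb. The summit was that of the highest peak, and motif letters were sought on both strands in 201 bp. Counts were tested with edgeR 4.0.16 (filterByExpr with a minimum count of 10, TMM, quasi-likelihood, Benjamini-Hochberg over all genes tested, adjusted p under 0.05 and over 2-fold), old with young or 3C with DMSO only. CPM are TMM-normalized, ± is SE unless SD is named, and replicate numbers in samples come from the labels. On simulated counts for the kidney age comparison with 14495 genes, 200 of 200 genes changed 4-fold were recovered with 3 false calls. Reads outside genes were 8.05 to 21.3% of a library and were left out. Alternatives were DESeq2 1.42.0, RLE scaling, filters, thresholds, a block for replicate number, and fits that left out 1 library at a time. Fibroblast libraries and treated livers were not used.

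Genes were named by rule: the 10 highest regions, up to 10 promoter and 6 nearest genes of smallest p whose groups did not overlap, all genes of 18 lists that had an old-only region, and genes nearest to 3 or more, with predicted genes left out. The regions, lists and tests were chosen with earlier results of these data known. A few genes that these rules name are not reported here.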

Additional observations from a re-analysis of the deposited data

Results flagged for a closer look

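Within groups of 4 kidney RNA libraries, 9 values of the genes named above stood far from the other 3, of 74 groups checked, and chance alone gives about 1 in 20. Old replicate 4, the most deeply sequenced library, was high for Ly6e (658 CPM, others 427 to 452), Plac8 (54.0 CPM, others 30.3 to 34.3) and Ccl3 (1.61 CPM, others 0.559 to 0.730). Young replicate 4 was low for Itgb2 (4.09 CPM, others 5.43 to 5.66) and high for Cxcr4 (5.41 CPM, others 4.54 to 4.68). Young replicate 3 was low for Psd4 (0.786 CPM, others 1.48 to 1.62) and was the only young library with a count of Tnf (0.143 CPM). Young replicate 1 was the only young library with a count of Ccr6 (0.0532 CPM) and of Cxcl5 (0.0532 CPM). The cause of these values was not tested.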

How the results depend on the processing

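The number of old-only regions was 1280 when each library gave equally many top peaks, 339 with −log10 q of at least 5, and 1239 to 2901 with 1 library left out. The promoter share was 22.1% at −log10 q of at least 5, 13.6% with protein-coding genes only, and 14.2 to 18.3% with 1 library left out. Motif shares fell with the shorter window of 50 bp on each side, which holds fewer bases: AP-1 12.3%, PU.1 8.11%, RUNX 6.78%, IRF 3.51%, NF-kB 0.484%, NFAT 1.69%, TEAD 1.33% and HNF1 0.0% of old-only regions, against 4.34, 1.51, 2.52, 0.966, 0.17, 2.1, 2.18 and 0.514% of all regions. In distal regions alone CEBP was at 0.0%. The liver difference stayed above 0 throughout, at 14.0 points (exact permutation p = 0.2) at a liver −log10 q of at least 5, 17.4 points (p = 0.1) with equal numbers of liver peaks, and 11.6 points (without old liver replicate 1, p = 0.4) to 22.1 points (without old liver replicate 2, p = 0.2) with 1 liver library left out.

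The 35 promoter genes higher in old kidney were 16 of 55 tested (29.1%) with regions of −log10 q of at least 5, and 26 to 38 with 1 RNA library left out, with 0 to 1 lower. The 50 nearest genes were 24 within 10 kb and 35 to 54 with 1 library left out. Of all tested genes 3.95 to 5.9% rose with 1 RNA library left out, and 34 to 337 genes fell. Nearest genes that fell numbered 1 with DESeq2, RLE size factors or no low count filter, 17 by adjusted p alone (60 higher), and 0 to 8 with 1 library left out. In liver, DESeq2 called 43 higher and 3 lower, and 1 library left out gave 4 to 37 higher and 1 to 2 lower. Replicate numbers did not pair the libraries (same-number correlations of −0.28 to 0.285 in kidney and −0.31 to 0.334 in liver). With a replicate block 30 promoter genes and 43 nearest genes were higher, against 4.53% of all genes tested in kidney. In liver 5 genes were higher with the block, against 0.726% of all genes. Mrc1 had an adjusted p of 0.129 in kidney (edgeR with the block). The cause was not tested. Of 23 named genes called in kidney, 19 kept the call in all alternatives run for each.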
